A study of Mus musculus with 51 samples.

Results

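The 10 genes described here, *Atf4*, *Atf5*, *Ddit3*, *Chac1*, *Trib3*, *Ddit4*, *Sesn2*, *Asns*, *Psat1* and *Phgdh*, belong to the transcriptional response of cells to amino acid shortage. They were looked up by symbol among the 24538 genes of 9 tables of FPKM (fragments scaled to transcript length and library size), and each was found in every table. They were chosen by their measured FPKM in these same samples, so their values are given as a description without a test. Mouse embryonic stem cells (mESCs) were driven towards cardiac mesoderm with Bmp4 (20 ng/ml), and RNA was sequenced from 18 samples to ask which genes depend on *Smad4*, *Eomes* and *T*. ChIP-seq and ATAC-seq samples of the same study were not analysed here.

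Wild-type (WT) F1G4 mESCs were sampled as aggregates before Bmp4 was added, the ES stage, and as differentiating cardiac mesoderm (ME) cells on days 1, 2 and 3, with 2 samples at each stage. CRISPR/Cas9 double nicking in F1G4 cells removed the promoter and first exon of *Eomes* or of *T*, which gave the *Eomes* KO and the *T* KO line, and the same step at *T* in the *Eomes* KO line gave the *Eomes*/*T* double KO (dKO). Each of these lines was sampled on days 2 and 3, with 1 sample for each line and day. In mESCs of mixed 129S/SvEv and C57BL/6 origin, Cre excised the floxed first exon of *Smad4*, and the resulting *Smad4* KO line was sampled with the WT cells of its own line on days 1 and 2, again with 1 sample each. The study's figure legends speak of averages of replicates for RNA-seq of KO cells as well, which the labels do not show, and this difference was not resolved. A KO line therefore also stands for its clone and for a single culture on each day, and the genotype cannot be told apart from these. Feeder fibroblasts had been removed before differentiation. From the ES stage to day 1 the cells also passed from a serum medium with LIF and added non-essential amino acids to a serum-free medium, and the change of medium and differentiation cannot be told apart.

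In the integrated stress response, kinases that sense amino acid shortage, unfolded protein in the endoplasmic reticulum (ER), haem shortage or double-stranded RNA phosphorylate the translation factor eIF2 alpha. General translation drops while the mRNA of the transcription factor Atf4 is translated more, so the protein can change without its mRNA. Atf4, often paired with a C/EBP protein, binds a composite C/EBP-ATF response element and turns on genes for amino acid synthesis and uptake, tRNA charging and the feedback regulation of the response itself. Serine and one-carbon metabolism, which several of these genes feed, is highly active in mESCs.

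The element lies close to the start of some of the genes, and its core is shown here because it is the sequence through which Atf4 is known to act on them. The 8-letter core TGATGNAA was searched on both strands in RefSeq promoters of GRCm38.p6, from 1000 bases before to 50 bases after each transcription start. It was found for 5 of the 10 genes, *Chac1*, *Asns*, *Trib3*, *Ddit3* and *Sesn2*, against 15.2% of all 27025 genes. In the nearer window of 300 bases, starting 250 bases before the start, it was found for 3 of the 10 and for 4.51% of all genes. The core is printed in capitals within 30 bases in the direction of the gene, and it reads as the reverse complement where it lies on the opposite strand.
Chac1, chr2:119351038-119351067, plus strand, core at -193 on the opposite strand: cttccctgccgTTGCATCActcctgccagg
Asns, chr6:7693214-7693243, minus strand, core at -23 on the same strand: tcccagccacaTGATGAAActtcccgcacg
Trib3, chr2:152344028-152344057, minus strand, core at 15 on the opposite strand: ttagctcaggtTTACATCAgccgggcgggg
Ddit3, chr10:127290481-127290510, plus strand, core at -301 on the opposite strand: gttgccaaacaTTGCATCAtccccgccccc
Sesn2, chr4:132510742-132510771, minus strand, core at -304 on the opposite strand: gtgaagtcccgTTTCATCAcgcagccctaa
Positions count from the transcription start, and give the first base of the core. The cores of *Chac1* and *Ddit3* have the same 8 letters. A match describes the sequence only, and these letters were not in the windows of *Atf4*, *Atf5*, *Ddit4*, *Psat1* and *Phgdh*.

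In RefSeq on GRCm38.p6 the genes lie apart from each other on 8 chromosomes. *Atf4* spans chr15:80255184-80257545, *Atf5* chr7:44812256-44816658, *Chac1* chr2:119351242-119354326, *Trib3* chr2:152337425-152344060, *Ddit3* chr10:127290793-127296291 and *Ddit4* chr10:59949675-59951770. *Sesn2* spans chr4:132492804-132510456, *Asns* chr6:7675165-7693209, *Psat1* chr19:15905123-15925059 and *Phgdh* chr3:98313171-98339969. *Atf5* overlaps *Nup62* and *Il4i1b*, and *Ddit3* overlaps *Mbd6* and the methionyl-tRNA synthetase gene *Mars*, each on the opposite strand. Libraries were strand-specific, but whether strand was used in counting is not given in the sources used here, so some fragments of these pairs could be shared.

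Each condition has a single FPKM value in a table, so no spread between samples could be computed and no difference has a replicate check. The depth could be read from the files. For genes with 1 RefSeq transcript, low FPKM values multiplied by transcript length fell on whole multiples of a fixed step, the worth of 1 fragment. In the 10 columns of KO cells and of the *Smad4* line, 92.1% to 94.0% of low values lay within 2% of a multiple of 1 step. In the 10 columns of F1G4 WT cells only 38.0% to 56.9% did, and a second step appeared, as a mean of 2 libraries gives by construction. The second step was less frequent than the first at the ES stage, with 97 values against 203, and on day 1, with 74 against 167. In the WT columns of the later days both steps had similar frequency. After rounding, the steps correspond to about 16000000 to 35000000 fragments assigned to genes in each KO or *Smad4*-line column and to 48900000 to 52400000 in each F1G4 WT column. The 10 genes rested on 17 to 30791 fragments per value, and 13 of 200 values on fewer than 100. Intervals from these fragment numbers cover counting error only.

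The targeted genes were checked first. On day 2 the *Eomes* KO had *Eomes* FPKM 2.42 and WT cells 9.42, and on day 3 these were 0.276 and 20.3. *T* FPKM was 6.64 in *T* KO cells and 44.8 in WT cells on day 2, and 3.00 and 323 on day 3. In the *T* KO column *Eomes* was called higher on day 2, at FPKM 24.7 against 9.81, and lower on day 3, at 4.83 against 19.6. In dKO cells *Eomes* FPKM was 1.24 on day 2 and 0.346 on day 3, and *T* FPKM was 2.77 and 1.93. *Smad4* FPKM was 39.4 in *Smad4* KO and 33.8 in WT cells on day 1, and 46.8 and 39.3 on day 2, and since only the first exon is deleted the level over the whole gene does not check this label. Of the fibroblast markers, *Col1a1*, *Col1a2*, *Col3a1*, *Dcn* and *Lum* stayed below FPKM 0.5 at every stage of the F1G4 WT cells, and the 8 markers, with *Postn*, *Pdgfrb* and *Thy1*, summed to FPKM 0.664 at the ES stage and 4.92 on day 3, where *Pdgfrb* was the most abundant at 2.902. The sum was 10.2 in *Eomes* KO and 5.14 in WT cells on day 3, where *Postn* was called higher, beside 7.39% of all genes. As TPM (each column scaled to the same sum) 5 of the 8 were called higher there, beside 2083 of all genes. In *Smad4* KO cells on day 2 the sum was 5.82 against 2.96, and *Dcn* was called higher, at 2.02 where WT cells are listed at 0, beside 2.56% of all genes. In the other KO columns the sum ran from 2.09 to 4.77, and the part of these markers in the values of the 10 genes was not tested.

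In F1G4 WT cells all 10 genes had a higher FPKM on day 1 than at the ES stage, and they then parted into 3 courses. The regulators and feedback genes *Atf4*, *Atf5*, *Ddit3*, *Chac1*, *Trib3* and *Sesn2* were highest on day 1. The enzymes *Asns*, *Psat1* and *Phgdh* were highest on day 2, and *Ddit4* went up at every stage to day 3. *Psat1* was higher on day 2 than on day 1 by a log2 ratio of only 0.10. In the WT cells of the *Smad4* line it was lower on day 2, at FPKM 199 against 243, so its course is not firmly set apart. Examined genes had FPKM above 1 in at least 1 column of a comparison, and those with a log2 ratio beyond -1 or 1 were called differentially expressed (DE), which is the study's own rule and carries no p-value. All 10 genes were examined in every comparison.

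*Atf4*, the transcription factor at the centre of the response, had FPKM 192 at the ES stage, 360 on day 1, 302 on day 2 and 197 on day 3, so that it ended where it had started. *Atf5*, a related factor also translated under stress, had FPKM 1.27, 4.58, 3.77 and 3.32 at the same stages. *Ddit3*, which encodes the factor CHOP, had FPKM 3.10, 26.9, 15.6 and 11.2. The log2 ratio of day 1 to ES was 3.12 for *Ddit3*, the highest of the 10, 1.85 for *Atf5* and 0.91 for *Atf4*, which was not called DE but would be as TPM, at 1.006.

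*Chac1*, an enzyme that degrades glutathione, had FPKM 2.66 at the ES stage, 12.7 on day 1, 8.77 on day 2 and 3.61 on day 3. *Trib3*, a pseudokinase that restrains Atf4, had FPKM 10.1, 23.0, 14.0 and 6.64, and was lower on day 3 than at the ES stage. *Sesn2*, which holds back mTORC1 when leucine is scarce, had FPKM 11.9, 17.4, 15.6 and 9.30, a course about as flat as that of *Atf4*. *Ddit4*, another inhibitor of mTORC1 that also responds to hypoxia, had FPKM 3.67, 10.2, 22.6 and 50.7. In F1G4 WT cells *Ddit4* thus moved against the other feedback genes from day 1 onwards. In the WT cells of the *Smad4* line *Ddit4* instead fell, from FPKM 18.4 on day 1 to 13.1 on day 2. *Chac1* fell there from 10.4 to 4.97 and *Trib3* from 25.8 to 7.78.

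*Asns*, which makes asparagine, had FPKM 76.6 at the ES stage, 139 on day 1, 177 on day 2 and 154 on day 3. *Phgdh*, the first enzyme of serine synthesis, had FPKM 26.7, 63.5, 87.0 and 69.4. *Psat1*, the enzyme after it, had FPKM 113, 244, 263 and 132. The enzymes were thus still high on day 2, when *Chac1*, *Trib3* and *Ddit3* were already below their level on day 1.

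Relative to the ES stage, 7 of the 10 genes were called higher on day 1, 7 on day 2 and 5 on day 3, where the same rule called 7.7%, 14.2% and 18.5% of all examined genes higher. None was called lower, where the rule called 5.84%, 9.08% and 12.6% of all genes. The median log2 ratio of the 10, taken with a pseudocount of 0.1, was 1.21, 1.36 and 0.72, beside medians of -0.05, -0.04 and -0.02 over all examined genes. From day 1 to day 2 only *Ddit4* was called, higher with a log2 ratio of 1.15, where 7.18% of all genes were called higher and 4.13% lower. From day 2 to day 3 *Chac1* (log2 ratio -1.28) and *Trib3* (-1.08) were called lower, where 4.06% of all genes were, and *Ddit4* (1.16) was called higher, where 6.14% were. *Psat1* stood just inside the bound with a log2 ratio of -0.99, and as TPM it would lie just past it.

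**Figure D1:**
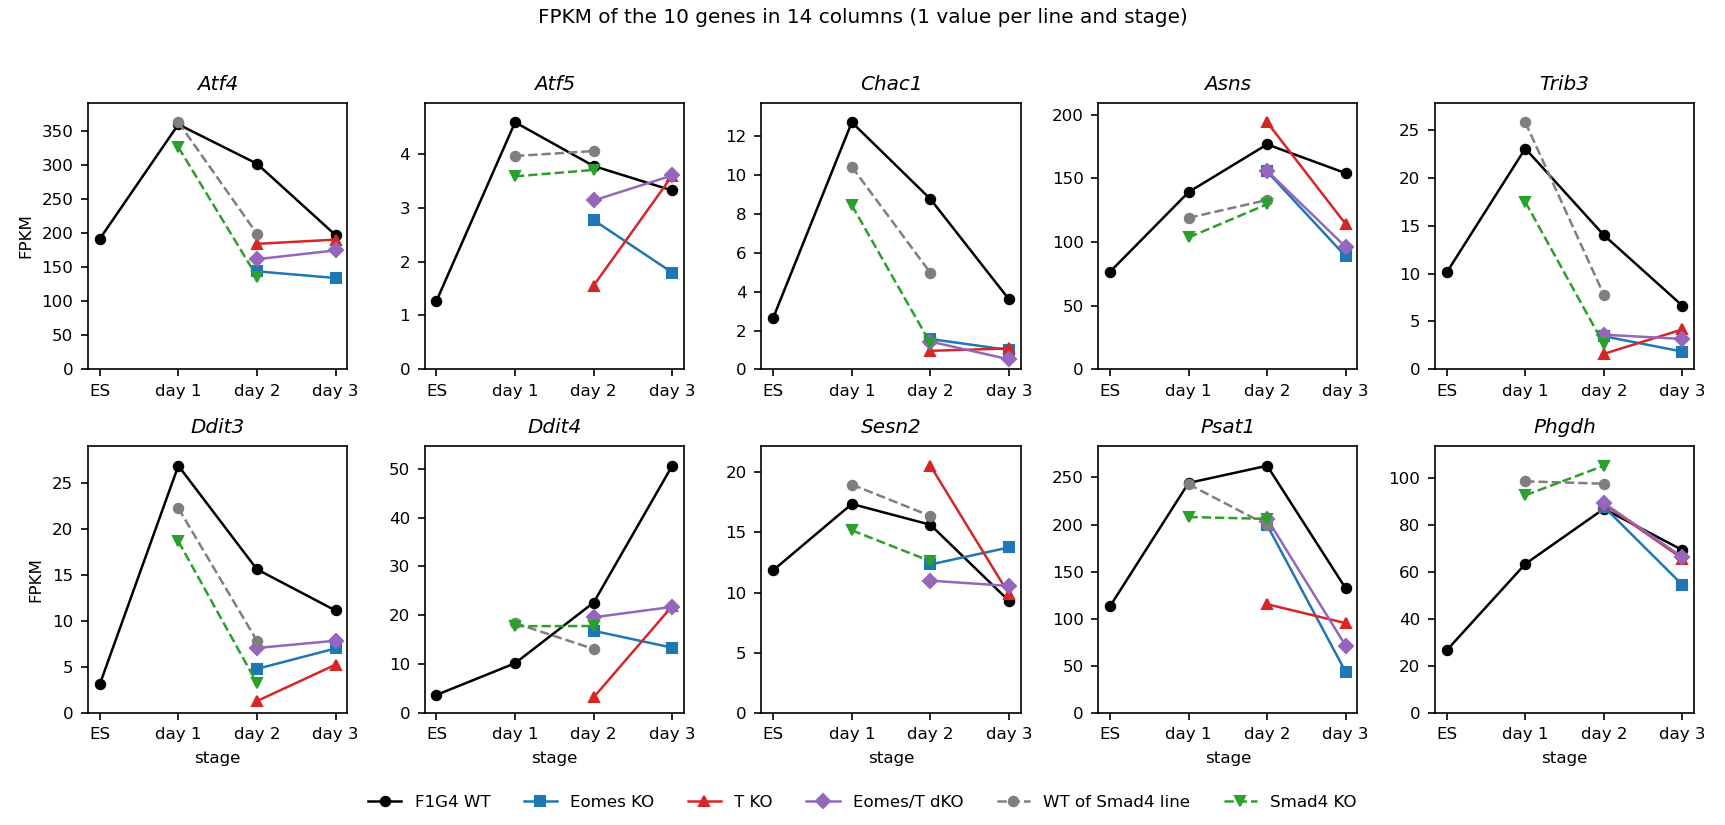
FPKM (vertical axis, from 0) of each of the 10 genes by stage (horizontal axis) in F1G4 WT, *Eomes* KO, *T* KO and dKO cells and in WT and KO cells of the *Smad4* line, 1 value for each line and stage, with the KO columns of the F1G4 lines brought to the scale of the time course through their WT column. *Chac1* and *Trib3* of every KO line lie below those of the WT cells of the same line and day, whereas *Phgdh* of the F1G4 KO lines lies on the WT course on day 2.

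In KO cells the 10 genes had lower FPKM than in WT cells in 67 of 80 values, of which 26 were called DE, and none was called higher, where the rule called between 2.41% and 9.93% of all examined genes lower in the single comparisons. The *Eomes* KO, *T* KO and dKO comparisons of a day share the same F1G4 WT samples, so they are not independent of each other, while the *Smad4* KO has WT cells of its own. The calls were unequally spread over the genes. *Chac1* was called lower in 7 of 8 comparisons, *Trib3* in 6, *Ddit3* in 5, *Ddit4* in 4, *Psat1* in 2, *Atf4* and *Atf5* in 1 each, and *Asns*, *Sesn2* and *Phgdh* in 0. In bulk RNA a smaller number of cells expressing a gene and less RNA per cell cannot be told apart.

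*Atf4* mRNA was lower in KO than in WT cells in all 8 comparisons. On day 2 its FPKM was 143 in *Eomes* KO, 190 in *T* KO and 160 in dKO cells, beside 299 to 311 in the WT column of these tables. The *Eomes* KO alone was called DE, with a log2 ratio of -1.07, while the *T* KO stood at -0.71 and the dKO at -0.90. With FPKM rescaled to TPM (each column scaled to the same sum), the dKO value was -1.31 and would be called as well. On day 3 the KO columns held 140, 192 and 182 and the WT columns 206, 199 and 205, so that the difference was smaller in each line. In the *Smad4* line *Atf4* FPKM was 326 in KO and 363 in WT cells on day 1, and 136 and 199 on day 2, with log2 ratios of -0.15 and -0.55.

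*Ddit3* had FPKM 4.74 in *Eomes* KO, 1.32 in *T* KO and 6.99 in dKO cells on day 2, beside 15.4 to 16.1 in WT cells, with log2 ratios of -1.70, -3.60 and -1.14. The value in *T* KO cells rested on about 20 fragments, for which a 95% Poisson interval runs from FPKM 0.806 to 2.04. On day 3 *Ddit3* FPKM was 7.34, 5.30 and 8.17 in the same lines and 11.3 to 11.7 in WT cells, and only the *T* KO was called, at -1.09. In the *Smad4* line it was 18.7 in KO and 22.3 in WT cells on day 1, and 3.24 and 7.86 on day 2, giving log2 ratios of -0.25 and -1.28. *Atf5* was called only in *T* KO cells on day 2, where its FPKM was 1.603 against 3.88. On day 3 *Atf5* was 1.88 in *Eomes* KO, 3.63 in *T* KO and 3.74 in dKO cells, beside 3.34 to 3.46 in WT cells.

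*Chac1* showed the lowest ratios of the 10 genes in 5 of the 8 comparisons. On day 2 its FPKM was 1.55 in *Eomes* KO, 0.985 in *T* KO and 1.42 in dKO cells, beside 8.69 to 9.06 in WT cells, which makes it 5.61, 9.20 and 6.13-fold lower. On day 3 it was 1.04, 1.09 and 0.535, beside 3.64 to 3.78, with log2 ratios of -1.86, -1.74 and -2.81. Its level in each of these 6 KO columns was below that of WT cells at the ES stage, 2.66. The smallest of them, in dKO cells on day 3, rested on 17 fragments, with a 95% Poisson interval from FPKM 0.312 to 0.857 for counting error only. In the *Smad4* line *Chac1* FPKM was 8.45 in KO and 10.4 in WT cells on day 1, and 1.35 and 4.97 on day 2, with log2 ratios of -0.30 and -1.89.

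*Trib3*, like *Chac1*, was below its WT value in all 8 comparisons. On day 3 it was less far below than *Chac1* in *T* KO and dKO cells. *Trib3* FPKM on day 2 was 3.43 in *Eomes* KO, 1.67 in *T* KO and 3.58 in dKO cells, beside 13.9 to 14.4 in WT cells, with log2 ratios of -2.02, -3.11 and -1.95. On day 3 it was 1.94, 4.21 and 3.30, beside 6.70 to 6.93, and the *T* KO, at -0.67, was not called. In the *Smad4* line it was 17.5 in KO and 25.8 in WT cells on day 1, and 2.61 and 7.78 on day 2, with log2 ratios of -0.56 and -1.58.

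*Ddit4* behaved otherwise. On day 2 its FPKM was 16.7 in *Eomes* KO and 19.4 in dKO cells, beside 22.4 to 22.5 in the WT columns, and neither was called. In *T* KO cells it was 3.28 against 23.4 on that day, a log2 ratio of -2.84. On day 3, when WT cells had reached 51.2 to 53.01, *Ddit4* was 14.0 in *Eomes* KO, 22.1 in *T* KO and 22.6 in dKO cells, and all were called, at -1.93, -1.21 and -1.22. *Smad4* KO cells of day 2 held more *Ddit4* than their WT cells, 17.8 against 13.1, with a log2 ratio of 0.44 that was not called.

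*Sesn2* was called in no KO comparison. Its log2 ratio ran from -0.51 in dKO cells on day 2, at FPKM 10.9 against 15.5, to 0.56 in *Eomes* KO cells on day 3, at FPKM 14.4 against 9.72. It was lower in KO cells in 4 comparisons and higher in 4.

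Among the enzymes, *Psat1* was called lower in *Eomes* KO cells on day 3, where its FPKM was 45.4 against 138, and in *T* KO cells on day 2, where it was 119 against 271. In dKO cells on day 3 it was 74.0 against 138, a log2 ratio of -0.89, which as TPM was -1.005 and past the bound. *Asns* was lower in KO cells in 7 of 8 comparisons, with the lowest value in *Eomes* KO cells on day 3, 92.7 against 161, a log2 ratio of -0.80. In *T* KO cells on day 2, where *Chac1*, *Trib3* and *Ddit3* stood at their lowest ratios, *Asns* FPKM was 200.3 against 183. *Phgdh* stayed between log2 ratios of -0.35 and 0.11 in all 8 comparisons.

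**Figure D2:**
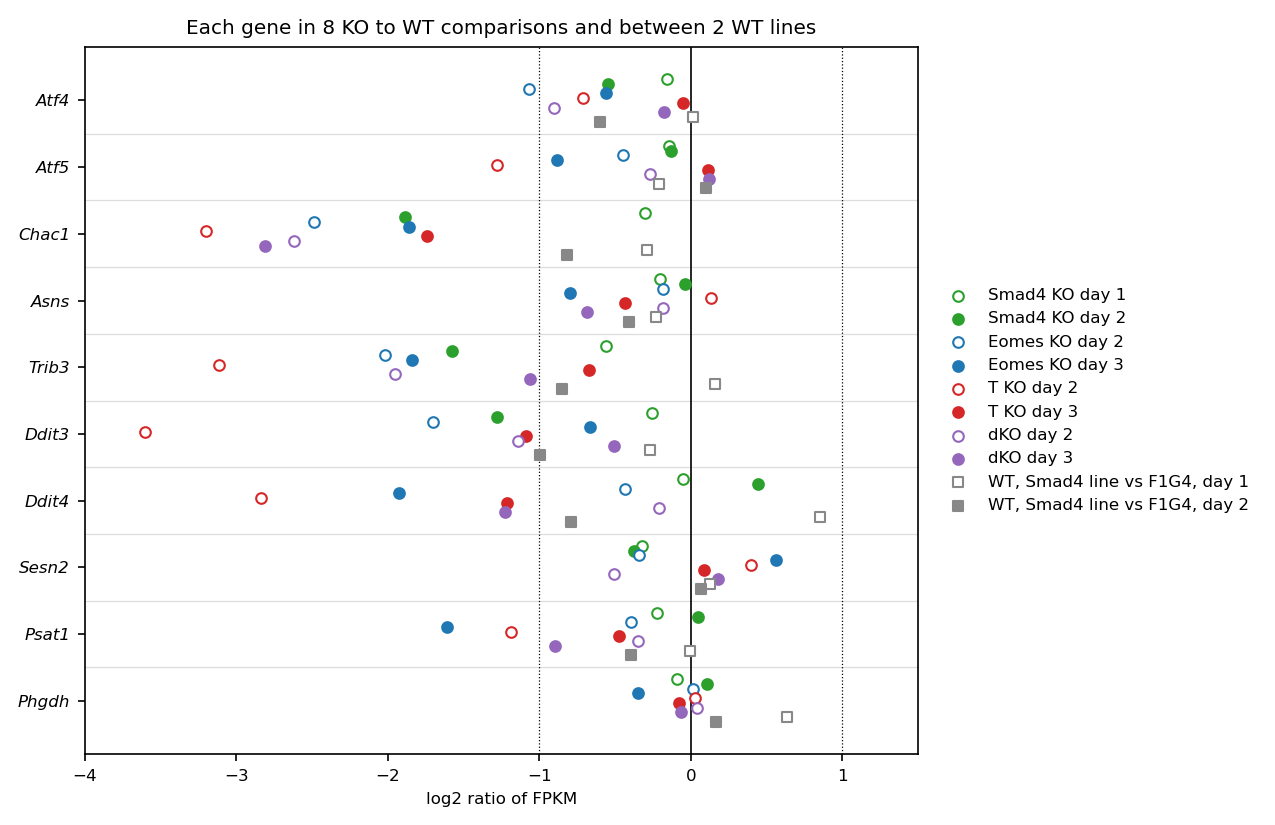
Log2 ratio of FPKM (horizontal axis) of each gene in the 8 comparisons of KO with WT cells (circles, coloured by line) and between the WT cells of the *Smad4* line and of F1G4 (grey squares), with dotted lines at -1 and 1. Open symbols mark the earlier and filled symbols the later day of a line. *Chac1*, *Trib3* and *Ddit3* reach -3.20, -3.11 and -3.60, while *Phgdh* and *Sesn2* stay within 1 of 0.

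Read by comparison, none of the 10 genes was called in *Smad4* KO cells on day 1, where the rule called 2.41% of all examined genes lower and 2.36% higher. All 10 were nevertheless below their WT value on that day as FPKM, by log2 ratios of -0.56 to -0.05. As TPM every ratio of that comparison rose by 0.065, and *Ddit4* was not below WT there. In *Smad4* KO cells on day 2, 3 genes were called lower, beside 3.21% of all genes lower and 2.56% higher. In the *Eomes* KO column 4 genes were called lower on day 2, beside 4.17% of all genes lower and 3.35% higher, and again 4 on day 3, beside 9.01% and 7.39%. In the *T* KO column 6 were called lower on day 2, beside 9.93% lower and 5.7% higher, and 3 on day 3, beside 3.92% and 2.12%. The dKO column had 3 on each day, beside 4.5% lower and 3.48% higher on day 2 and 5.53% and 5.51% on day 3. Since the genes were chosen on these values, nothing is read from the excess over the background.

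The median log2 ratio of the 10 was -0.21 and -0.25 in *Smad4* KO cells on days 1 and 2, -0.43 and -0.82 in *Eomes* KO cells on days 2 and 3, -1.21 and -0.45 in *T* KO cells, and -0.43 and -0.59 in dKO cells. Over all examined genes the median lay between -0.04 and 0.00 in these comparisons. The balance of calls over all genes differed on the TPM scale. There the minimum of 1 lies at a lower FPKM, so both the ratios and the set of examined genes changed. With FPKM rescaled to TPM, the 468 lower and 376 higher genes of *Eomes* KO cells on day 2 became 1053 and 391, and the 1048 and 859 of day 3 became 812 and 2083. The 1128 lower and 647 higher genes of *T* KO cells on day 2 became 1083 and 1172, and the 504 and 390 of dKO cells on day 2 became 1869 and 279. On the TPM scale the 10 genes were called lower 4, 4, 6 and 4 times in these comparisons, and none was called higher.

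**Figure D3:**
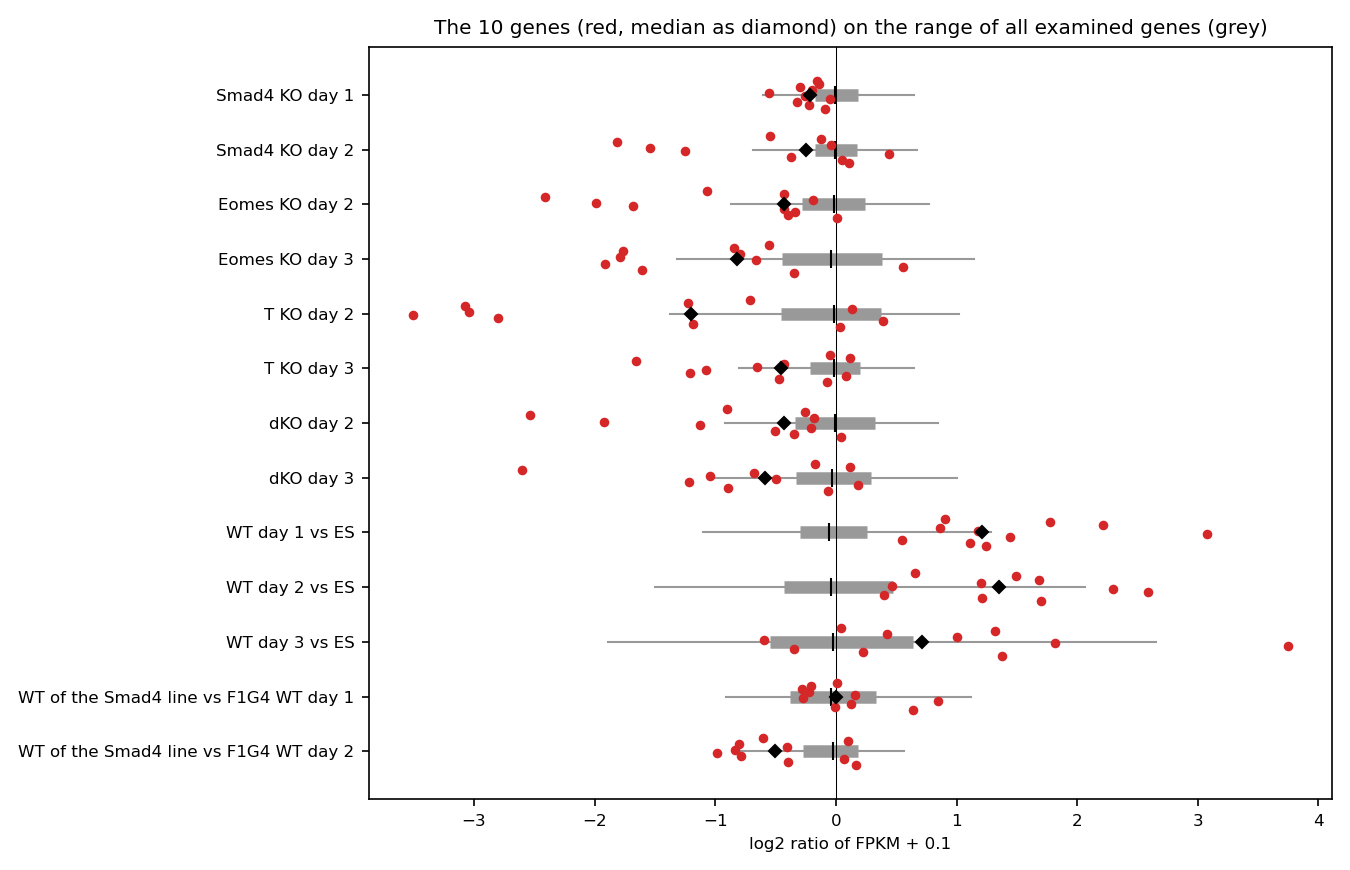
Log2 ratio of FPKM + 0.1 (horizontal axis) of the 10 genes (red points, their median as a black diamond) in each comparison, over the range of all examined genes (thin grey line from the 5th to the 95th percentile, thick grey bar from the 25th to the 75th, black tick at the median). In *T* KO cells on day 2 the median of the 10 is -1.21, and between the WT lines on day 2 it is -0.50.

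The WT cells of both lines, those of the *Smad4* line carrying floxed *Smad4*, can be set beside these ratios. WT cells of the *Smad4* line were set against F1G4 WT cells across tables that were normalized separately. On day 1 the median log2 ratio of the 10 genes was 0.00, and on day 2 it was -0.50, which is further from 0 than in *Smad4* KO against WT cells on that day. None of the 10 was called on either day, where the rule called 10.8% and 5.15% of all genes in either direction. On day 2 *Ddit3* came closest, at -0.99, then *Trib3* at -0.85, *Chac1* at -0.82 and *Ddit4* at -0.79, while *Phgdh* stood at 0.17. *Chac1*, *Trib3* and *Ddit3*, which reached the lowest ratios in KO cells, were thus also lower in one WT line than in the other on day 2. Their differences between the WT lines were smaller than in the KO comparisons of day 2. For *Ddit4* this held only beside the *T* KO, as its log2 ratio on day 2 was -0.43 in *Eomes* KO, -0.21 in dKO and 0.44 in *Smad4* KO cells.

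Other genes of the response were read from lists set up by hand from general knowledge. Of 10 genes for the synthesis of amino acids and one-carbon units, the *Eomes* KO had 3 called lower on day 2 and 4 on day 3, the *T* KO 3 and 1, the dKO 2 and 3, and the *Smad4* KO 0 on either day. Over all genes the shares called lower were 4.17% and 9.01% in the *Eomes* KO, 9.93% and 3.92% in the *T* KO, 4.5% and 5.53% in the dKO, and 2.41% and 3.21% in the *Smad4* KO on its days, and the counts of the next lists stand beside the same shares. *Cth*, which makes cysteine, had FPKM 13.2 against 64.6 in *Eomes* KO cells on day 3, 20.95 against 62.3 in *T* KO cells and 20.2 against 64.2 in dKO cells. *Mthfd2*, an enzyme of mitochondrial one-carbon metabolism, had FPKM 30.3 against 70.5 in *Eomes* KO, 31.4 against 73.4 in *T* KO and 31.3 against 70.4 in dKO cells on day 2. *Cbs*, the enzyme before *Cth*, had FPKM 2.75 against 7.78, 3.89 against 8.09 and 3.67 against 7.77 on the same day, and as TPM its call in *T* KO cells was lost, at a log2 ratio of -0.94. No gene of this list was called higher in any KO comparison.

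Of 10 amino acid transporters, the *Eomes* KO had 4 called lower on day 2 and 1 on day 3, the *T* KO 3 and 1, and the dKO 5 and 2. The 1 of 10 in the *Eomes* KO on day 3 is near the 9.01% of all genes. *Slc7a1*, which carries arginine and lysine, had FPKM 2.62 against 7.58 in *Eomes* KO, 2.15 against 7.88 in *T* KO and 2.23 against 7.56 in dKO cells on day 2. *Slc1a4*, which carries alanine and serine, had FPKM 5.65 against 13.8 in *Eomes* KO and 4.93 against 13.7 in dKO cells on day 2, and 6.72 against 14.1 in *T* KO and 4.15 against 14.5 in dKO cells on day 3. The glutamine carrier *Slc38a2* had FPKM 15.1 against 36.3 in *T* KO and 16.5 against 34.8 in dKO cells on day 2. *Slc3a2*, the heavy chain shared by several carriers, was called in *T* KO cells on day 2, at 38.8 against 85.5, and in *Eomes* KO cells on day 3, at 23.9 against 64.0. In *Smad4* KO cells on day 2 the cationic carrier *Slc7a3* was called higher, at 119.8 against 44.0.

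The tRNA synthetases were called less evenly. Of 12 whose genes are known targets of Atf4, 5 were called lower in *Eomes* KO cells on day 3, 5 in *T* KO cells on day 2 and 1 in dKO cells on day 3, and 0 in the other KO comparisons. *Yars* had FPKM 18.3 against 48.4 and 25.6 against 65.5 in the former 2 comparisons, and *Nars* 96.6 against 239.8 in *Eomes* KO cells. *Cars* had FPKM 15.8 against 40.1 in *Eomes* KO cells on day 3. Of 8 other tRNA synthetases, only *Qars* was called, at 27.2 against 70.4 in *T* KO cells on day 2.

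Of 12 further regulators of the response, the *Eomes* KO had 4 called lower on day 2 and 2 on day 3, the *T* KO 4 and 1, the dKO 5 and 2, and the *Smad4* KO 0 on day 1 and 2 on day 2, beside 4.17%, 9.01%, 9.93%, 3.92%, 4.5%, 5.53%, 2.41% and 3.21% of all genes in the same order. *Atf3*, a factor that acts beside CHOP, had FPKM 3.43 against 11.3 in *Eomes* KO, 3.50 against 11.7 in *T* KO and 5.47 against 11.2 in dKO cells on day 2, and 3.30 against 8.35 in *Smad4* KO cells. On day 3 *Atf3* was 26.4 against 15.9 in *T* KO cells, which was not called, and 7.01 against 16.4 in *Eomes* KO cells, a call that was lost as TPM. *Jdp2*, a relative of *Atf3*, had FPKM 1.31 against 7.86 in *Eomes* KO and 2.21 against 7.85 in dKO cells on day 2, and 1.90 against 5.01 in *Smad4* KO cells. *Nupr1*, a stress-induced chromatin protein, had FPKM 5.64 against 14.8, 5.91 against 15.4 and 5.49 against 14.7 on day 2 in the *Eomes* KO, the *T* KO and the dKO. *Nupr1* also differed between the WT lines, at FPKM 3.13 in the *Smad4* line and 14.9 in F1G4 on day 2. *Stc2*, a secreted glycoprotein, was called lower in all 6 comparisons of the F1G4 KO lines, with FPKM between 4.16 and 5.88 in KO and between 11.6 and 13.8 in WT cells. As TPM the *Stc2* call in *Eomes* KO cells on day 3 was lost, with a log2 ratio of -0.93 instead of -1.22. *Eif4ebp1*, a repressor of cap-dependent translation, was above its WT value in all 6 comparisons of the F1G4 KO lines, by log2 ratios of 0.36 to 1.04 as FPKM. As TPM the ratio of every gene in dKO cells on day 2 fell by 0.41, and *Eif4ebp1* was not above WT there. It was called higher in *T* KO cells on day 2, at 339 against 165.

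In the F1G4 WT time course the median log2 ratio to the ES stage was highest on day 1 for the synthesis genes (0.75), the tRNA synthetase genes known as Atf4 targets (0.66) and the regulators, and on day 2 for the transporters (0.59, beside 0.52 on day 1). Of the 12 regulators, 11 were examined on day 1 relative to the ES stage, and 6 were called higher and 1 lower, beside 7.7% and 5.84% of all genes, the median log2 ratio being 2.103. *Stc2* had FPKM 2.55 at the ES stage and 13.8 on day 1, *Cebpb* 2.07 and 11.1, and *Jdp2* 1.16 and 5.32. *Cebpb* and *Jdp2* were higher on day 3 than on day 1, at 16.9 and 11.6. *Nupr1* had FPKM 15.6 at the ES stage, 67.5 on day 1 and 4.00 on day 3. *Gadd45a*, a growth arrest gene, was called lower at every stage after ES, with FPKM 78.7 at the ES stage and 13.9 on day 3. *Atf3* had FPKM 0.237 at the ES stage, 3.97 on day 1, 11.4 on day 2 and 15.8 on day 3. On day 1, 3 synthesis genes (*Aldh18a1*, *Gpt2* and *Mthfd2*), 3 transporters (*Slc7a11*, *Slc1a4* and *Slc6a9*) and 1 of 12 tRNA synthetase genes (*Cars*) were called higher, the last being near the 7.7% of all genes. The 8 genes for the eIF2 alpha kinases and their partners, which lie upstream of *Atf4*, were not called in any KO comparison, and in the time course only *Eif2ak2*, the kinase that binds double-stranded RNA, was called, higher on day 3 at FPKM 16.7 against 7.41 at the ES stage. With 2.41% to 9.93% of all genes called lower in KO columns and 18.5% higher on day 3, these counts among 8 genes are near the background.

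**Figure D4:**
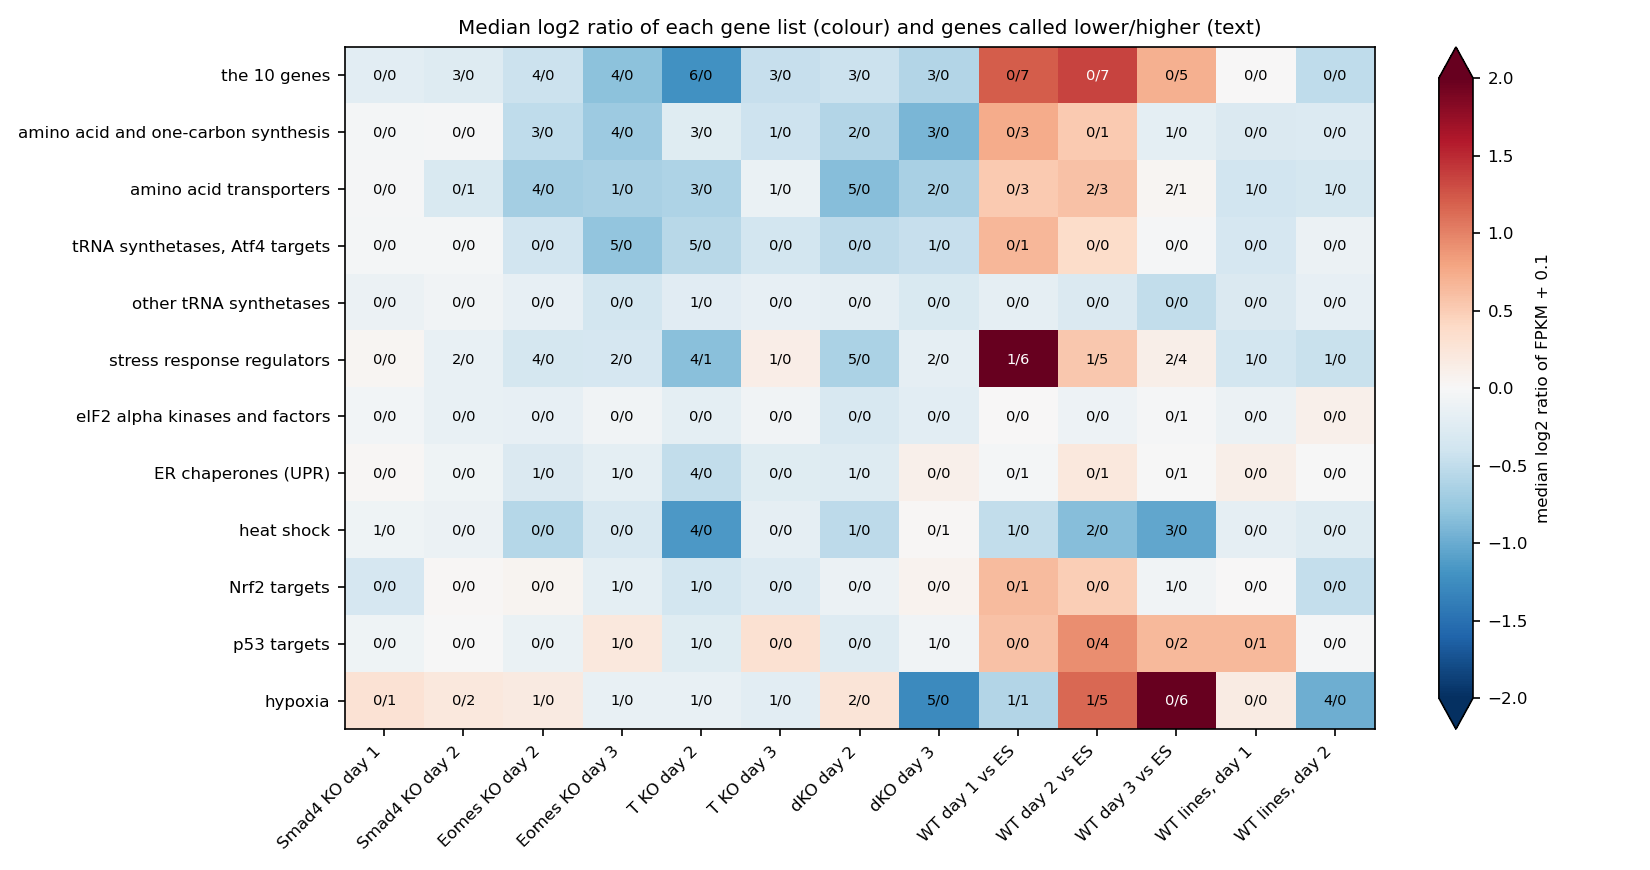
Median log2 ratio of FPKM + 0.1 (colour) over the examined genes of each list (rows) in each comparison (columns), with the number of genes called lower and higher in each cell. The 10 genes and the lists of their pathway are blue in the KO columns of the F1G4 lines, apart from the regulators in *T* KO cells on day 3 at 0.13. The other tRNA synthetases are below 0 in these columns as well, with medians from -0.37 to -0.16. Heat shock genes have their lowest KO median, -1.15, in *T* KO cells on day 2. Beside it stand -0.57 and -0.33 in *Eomes* KO cells and -0.52 in dKO cells on day 2. As TPM the medians of *Eomes* KO cells on day 3 turned positive for heat shock genes, at 0.02, and for the eIF2 alpha kinases and factors, at 0.21 instead of -0.07. They also turned positive for ER chaperones and Nrf2 targets, at 0.08 each, and for hypoxia genes, at 0.14. As TPM the heat shock median of dKO cells on day 2 was -0.98, close to the -1.08 of *T* KO cells.

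The column of *T* KO cells on day 2 and that of *Eomes* KO cells on day 3 differed from WT over a larger share of genes than the others, 15.6% and 16.4%, beside 4.77% to 11.0% in the other KO comparisons. As TPM, where the minimum of 1 took in more genes of low FPKM, these shares were 17.9% and 22.4%. There dKO cells on day 2 reached 17.5%, and the other KO comparisons lay between 7.79% and 14.1%. With TPM and this larger set of genes, dKO cells on day 2 thus stood beside *T* KO cells on day 2. In *T* KO cells on day 2, 4 of 7 heat shock genes were called lower with a median log2 ratio of -1.15 over the 6 examined, beside 9.93% of all genes called lower. Among the 4 was the chaperone *Hsph1* at FPKM 18.3 against 58.1. *Dnajb1*, at 32.1 against 20.3, and *Hspa8*, at 2542 against 1922, lay above WT there and were not called. As TPM, dKO cells on day 2 also had 4 heat shock genes called lower, at a median of -0.98 beside -1.08 in *T* KO cells. On that scale 1869 of all genes were called lower in these dKO cells and 1083 in the *T* KO cells. In *T* KO cells on day 2, 4 of 14 ER chaperones of the unfolded protein response were called lower, beside the same 9.93%, with *Dnajb9* at 4.24 against 12.9 and *Herpud1* at 9.61 against 23.6. The *T* KO library of day 2 was also the shallowest, at 16000000 fragments. Their part in the values of the 10 genes was not tested. Without *T* KO cells on day 2, *Chac1* was called lower in 6 of 7 comparisons and the 10 genes in 20 of 70 values, and without *Eomes* KO cells on day 3 as well, in 5 of 6 and in 16 of 60.

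Over the 14 distinct columns, the 10 genes varied together to unequal degrees. As a description over columns that share cells and WT samples, the Pearson correlation of log2(FPKM + 0.1) was 0.93 between *Chac1* and *Trib3*, 0.91 between *Atf4* and *Trib3* and 0.87 between *Atf4* and *Chac1*. It was 0.64 between *Asns* and *Phgdh*, and -0.51 between *Ddit4* and *Sesn2*. With the mean of the other members, *Chac1* correlated at 0.83, *Ddit3* and *Atf4* at 0.81 and *Asns* at 0.20. Between its lowest and highest column *Chac1* varied 24.7-fold, *Ddit3* 21.05-fold, and *Trib3* and *Ddit4* 15.9-fold each, whereas *Sesn2* varied 2.21-fold, *Asns* 2.53-fold and *Atf4* 2.70-fold.

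Among the genes outside the 10 whose course was most like the mean of the 10 over the 14 columns were *Cars* (Pearson r 0.91), *Mafg* (0.89), *Pmvk* (0.88), *Yars* (0.87), *Herpud1* (0.87), *Stc2* (0.87) and *Rspo1* (0.85), out of 9147 genes ranked. *Cars*, *Yars*, *Herpud1* and *Stc2* were already in the lists.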

How the data were processed

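Total RNA was turned into strand-specific libraries, read from both ends. FPKM was computed by the authors with Cuffdiff 2.2.1 and deposited as 1 value per gene and condition, after trimming with cutadapt 2.9 and alignment with HISAT2 2.1.0 to mm10, the UCSC name of GRCm38, with refSeq genes (versions from the submitters' processing notes). Cuffdiff corrected for multi-reads and bias, but did not correct for effective length. FPKM is relative to library size, and short RNAs such as *Rmrp*, which reach high FPKM, weigh on any rescaling to TPM.

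Ratios were taken within a table, except between the WT lines and over the 14 distinct columns. For the latter, KO columns were multiplied by 0.957 to 1.01, the factor between the WT columns of a table and the time course. Duplicated gene names were left out. Medians and correlations used log2(FPKM + 0.1), calls no pseudocount. Counting intervals are exact Poisson intervals at 95%. Fragments were obtained as FPKM times RefSeq transcript length over the step of the column, taking the middle of the range where a gene has several transcripts. No test was possible, as each column is 1 value. The 10 genes and all 16 other lists were chosen with earlier results of these data known. From each list, up to 3 genes per comparison with the largest ratio, past the rule and at FPKM 5 or above in the higher column, were to be named. *Slc7a11*, *Slc6a9*, *Eif4ebp1* and other genes named beyond these, and values of named genes in further comparisons, were chosen after the values were seen. Of the 8 genes ranked most like the 10, 1 is not reported here. Alternatives were a pseudocount of 1, FPKM above 5 or no minimum, TPM, centred ratios, removal of trends with GC content and transcript length in 20 equal groups of genes, and leaving out columns. The calls and the steps were tested on simulated data with 15587 genes. Figures were drawn with matplotlib 3.10.9, and values computed in Python 3.11.15 with scipy 1.17.1, pandas 2.3.3 and numpy 2.4.6.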

Additional observations from a re-analysis of the deposited data

How the results depend on the processing

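No paired analysis was possible because no result comes from a test and the columns are not replicates. The alternatives were run on 11 comparisons, those of KO with WT cells and of days 1 to 3 with the ES stage. They were not run between successive days or between the WT lines. Under a pseudocount of 1, FPKM above 5, no minimum, TPM and centring, the median log2 ratio of the 10 genes kept its sign in these 11 comparisons. With GC and length trends removed (chosen after seeing the data) it did so in the 8 KO comparisons, where alone this was run. In dKO cells on day 2 this median was -0.83 as TPM against -0.43 as FPKM, because the FPKM of all genes summed to 608585 in KO and 458639 in WT cells and the ratio of every gene fell by 0.41. TPM shifted ratios by 0.065 in *Smad4* KO cells on day 1, -0.22 and 0.28 in *Eomes* KO cells on days 2 and 3, 0.12 in *T* KO cells on day 2, -0.11 in dKO cells on day 3, and 0.14 and 0.13 on days 2 and 3 against ES. As TPM, dKO cells on day 2 had 5 instead of 2 synthesis genes, 8 instead of 5 transporters, 3 instead of 0 tRNA synthetase genes known as Atf4 targets and 7 instead of 5 regulators called lower, dKO cells on day 3 had 6 instead of 3 synthesis genes, and *Eomes* KO cells on day 3 had 0 instead of 2 regulators. Over all genes the number called lower moved with them, from 504 to 1869, from 634 to 1009 and from 1048 to 812 in these 3 comparisons. A minimum of 1 as TPM also took in more genes of low FPKM. With a pseudocount of 1, 3 of the 10 genes were called higher on day 3 against ES instead of 5. Without *T* KO day 2 and *Eomes* KO day 3, 16 of 60 values were called lower instead of 26 of 80, since the columns left out held 10 of the 26. The other counts of called members in the 11 comparisons stayed within 1.5 times of those reported, and the 8 genes most like the 10 remained the same 8 without rescaling of KO columns and with a pseudocount of 1. The main limits are 1 labelled sample for each KO line and day, without a replicate check, WT columns shared between the F1G4 KO lines, and few fragments for *Chac1* and *Ddit3* in KO cells.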

Other observations

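Genes known to respond to low oxygen, as *Ddit4* does, were read beside it. Of 9 such genes, 6 were called higher on day 3 against ES in F1G4 WT cells, beside 18.5% of all genes, with a median log2 ratio of 2.42 over the 8 examined, among them *Ndrg1* at FPKM 23.3 against 2.17, *Vegfa* at 12.5 against 1.39 and *Bnip3* at 81.5 against 14.7. In dKO cells on day 3, 5 of the 9 were called lower, beside 5.53% of all genes, with a median of -1.27, with *Ndrg1* at 3.52 against 24.2, *Egln3* at 5.54 against 25.9 and *Bnip3* at 19.4 against 84.9, while *Ddit4* was 22.6 against 52.7. In *Eomes* KO cells on day 3, where *Ddit4* was lowest of the day at 14.0, only *Ndrg1* was called lower, at 12.0 against 24.4, and not as TPM, at a log2 ratio of -0.73, and 1 of 9 is near the 9.01% of all genes. In *T* KO cells on day 3, with *Ddit4* at 22.1 against 51.2, only *Egln3* was called lower, at 8.80 against 25.1, beside 3.92% of all genes. In *T* KO cells on day 2, where *Ddit4* had its lowest ratio at 3.28 against 23.4, the median of the hypoxia genes was -0.14 with 1 called lower, and 0 as TPM. As FPKM 9.93% of all genes were called lower there, and 1 of 9 is near that share. In *Smad4* KO cells on day 2, *Slc2a1* at 319.6 against 101 and *Bnip3* at 36.8 against 12.4 were called higher, beside 2.56% of all genes. Between the WT lines on day 2, 4 of the 9 were called lower in the *Smad4* line, beside 5.15% of all genes called in either direction.

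Of 8 targets of p53, 4 were called higher on day 2 against ES, beside 14.2% of all genes, with *Cdkn1a* at FPKM 12.0 against 3.02 and *Phlda3* at 27.0 against 7.47, and *Cdkn1a* was called lower in *T* KO cells on day 2, at 4.56 against 12.3, and in *Eomes* KO cells on day 3, at 6.57 against 16.4. Of 6 targets of Nrf2, *Hmox1* was called lower in the same columns, at 15.0 against 43.8 and 18.0 against 37.1, the latter not as TPM, at a log2 ratio of -0.76. These single calls are near the 9.93% and 9.01% of all genes called lower in those columns. The neural marker *Sox1* was called higher in *Eomes* KO cells on both days, at 7.17 against 0.200 on day 2 and 5.75 against 0.199 on day 3, in dKO cells, at 5.17 and 6.49 against 0.200 and 0.198, in *T* KO cells on day 2, at 4.01 against 0.209, and in *Smad4* KO cells, at 1.62 against 0.136 on day 1 and 3.58 against 0.302 on day 2. *Pax6* was called higher in *Smad4* KO cells on both days, reaching 10.4 against 0.378 on day 2, in *Eomes* KO cells on day 2 and in dKO cells on both days. Of the pluripotency markers, *Nanog* was called lower in *Smad4* KO cells, at 18.1 against 65.2 on day 1 and 26.8 against 121 on day 2, where *Zfp42* and *Esrrb* were called lower as well and *Sox2* higher, at 119.6 against 35.2. *Sox2* was also called higher on day 2 in *Eomes* KO cells, at 51.6 against 21.3, and in *T* KO cells, at 55.2 against 22.2, where *Esrrb* was higher too, at 4.86 against 2.09. All 6 mesoderm markers (*T*, *Eomes*, *Mixl1*, *Mesp1*, *Wnt3* and *Fgf8*) were called lower in each of the 3 F1G4 KO lines on day 3. The rule called lower 9.01% of all genes in the *Eomes* KO, 3.92% in the *T* KO and 5.53% in the dKO. The list holds the deleted genes themselves, *Eomes* in the *Eomes* KO, *T* in the *T* KO and both in the dKO. The calls of these deleted genes follow from the deletion. Of 6 endoderm markers only *Foxa2* was called in KO cells. It was lower in *Eomes* KO and dKO cells on day 3, beside 9.01% and 5.53% of all genes. In *T* KO cells on day 2 it was higher, at 1.28 against 0.527, beside 5.7% of all genes. As TPM the minimum of 1 lies at a lower FPKM, so more genes were examined. There 3 of the 6 (*Foxa2*, *Gata4* and *Gata6*) were called lower in *Eomes* KO cells on day 3, beside 812 of all genes. In *T* KO cells on day 3 it was 2 (*Gata4* and *Gata6*), beside 674 of all genes. The study counts *Gata4* among cardiac progenitor genes and *Gata6* among markers of cardiac mesoderm, so these calls are not particular to endoderm. On that scale 1 of the list, *Foxa2*, was also called lower in *Smad4* KO cells and 1, *Afp*, higher in *Eomes* KO cells on day 2.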
